A study of Mus musculus with 6 samples.

Results

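The cells described here are the B cells found among dissociated cells of the proximal pulmonary artery (PA) of young and old mice. They were selected on their reads: a kept barcode counted as a B cell when it held at least 2 unique molecular identifiers (UMIs, each 1 captured RNA molecule) of Cd79a, Cd79b, Ms4a1 and Ly6d together, and more than 2 times as many as of 8 genes that mark other cells (Cdh5, Myh11, Pdgfra, C1qa, C1qb, Cd3e, Msln and Scgb1a1). Kept barcodes had at least 500 UMIs and 300 genes and at most 20% mitochondrial UMIs. By this rule 2103 of 15622 kept barcodes (13.5%) were B cells.

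Single cell RNA sequencing was done on 6 libraries, 2 young and 4 old. The young libraries came from mice aged 3 months, a male and a female, and the old libraries from mice aged 20, 24, 27 and 28 months. The oldest was a female and the other old mice are males by the study's account; the labels themselves give a sex for the 3-month female and the 27-month and 28-month mice only. The study names the strain C57BL/6J, wild type, for its young and old mice, no treatment or transgene is named for these libraries, and the ages it gives match each old library to a single mouse. It names more young mice than there are young libraries here, so whether a young library held a pool cannot be told. The arteries were taken out together with the tissue around them, and no sort or enrichment for immune cells is described, so a B cell here may have come from the wall, from adjoining tissue or from blood. The Xist level over all kept barcodes of the 20-month library was 694 CPM (UMIs of a gene per 1000000 UMIs), against 609 and 850 in the 3-month and 28-month females and 51.5, 47.7 and 1.53 in the 3-month, 24-month and 27-month males. Its 4 Y-linked genes had 65.7 CPM, against 26.5 and 0.331 in those females and between 266 and 342 in those males. That library goes against the sex given for it, and it entered no comparison of expression below because it held fewer than 10 B cells.

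B cells carry an antigen receptor made of an immunoglobulin heavy and a light chain, held at the surface by the signalling pair Cd79a and Cd79b. Each cell joins 1 variable (V) gene segment per chain to a constant region, so the V gene that a cell transcribes is a mark shared by its descendants. Newly made cells use the IgM and IgD constant regions, switched cells use IgG, IgA or IgE, and cells that secrete antibody make large amounts of immunoglobulin RNA with Jchain, the peptide that joins IgM and IgA into polymers.

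The B-cell label held against genes that the rule did not use. Ighm, the constant region of IgM, was present in 85.3% of the B cells of the 3-month male, 76.5% of the 3-month female, 77.8% at 20 months, 77.5% at 24 months, 100% at 27 months and 97.8% at 28 months. Its level in the B cells was 3914 CPM in the 3-month male, against 290 CPM in the other kept barcodes of the library and 156 CPM in barcodes of 10 to 100 UMIs, which hold free RNA. In the 28-month female the same values were 20270, 80.7 and 656 CPM. Pax5, the factor that holds B-cell identity, had 184 CPM in the 3-month male and 292 CPM in the 28-month female, against 13.8 and 0.820 CPM in the other barcodes and 71.5 and 14.1 CPM in free RNA. In the 3-month female Pax5 had 4 UMIs and Cd22 had none, so that library carries the label on few molecules.

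Markers of other cells differed by library. Cd3e, C1qa, Scgb1a1 and the other excluding genes were held low by the rule itself. The 18 genes of T and NK cells summed to 36.0 CPM in the 3-month male and to 0 in the 3-month female and at 20 months, then to 96.4, 34.2 and 133 CPM at 24, 27 and 28 months. At 28 months, among genes of the T-cell receptor complex, Cd3g was found in 35 of 270 cells, Trac in 8, Cd3d in 5, Trbc2 in 3 and Cd3e in 2. The 10 fibroblast genes summed to 174, 0, 581, 289, 123 and 497 CPM in the same order. The 16 macrophage and monocyte genes reached 1640, 2735, 756, 1568, 1204 and 1914 CPM, most of it from Plac8, which B cells are known to express as well. The 11 airway genes summed to 318, 706, 6861, 598, 281 and 507 CPM, so that in the 9 B cells of 20 months they exceeded Cd79a (959 CPM) and Ighm (843 CPM), with Cyp2f2 alone at 3925 CPM. Neutrophil genes reached 351 CPM at 24 months and at most 11.8 CPM elsewhere. The 6 red-cell genes differed far more between libraries, with 336, 794, 0, 51742, 27.4 and 12996 CPM, against 20378, 104133, 7713, 112704, 1132 and 57639 CPM in free RNA. The part of these other-cell RNAs in the results below was not tested. No doublet caller was run.

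B cells were unevenly spread over the libraries. They numbered 1102 of 2722 kept barcodes in the 3-month male (40.5%, exact 95% interval 38.6 to 42.4) and 17 of 935 in the 3-month female (1.82%, 1.06 to 2.90). In the old libraries they numbered 9 of 1233 at 20 months (0.730%, 0.334 to 1.38), 672 of 2868 at 24 months (23.4%, 21.9 to 25.03), 33 of 3797 at 27 months (0.869%, 0.599 to 1.22) and 270 of 4067 at 28 months (6.64%, 5.89 to 7.45). The groups overlapped: the young values were the highest and the fourth highest of the 6, and the libraries of 20 and 27 months lay below both. Young libraries had 21.2% ± 27.3 (SD, n = 2) and old libraries 7.92% ± 10.7 (SD, n = 4), with p = 0.4 in an exact two-sided permutation test whose smallest possible p is 0.1333. Among B, T and myeloid barcodes alone the shares were 75.7% and 23.3% in the young and 6.52%, 64.2%, 10.1% and 26.4% in the old libraries (exact permutation p = 0.4). Without the 3-month male the mean difference turned from -13.2 to 6.10 percentage points. In libraries of dissociated tissue, a larger B-cell share and a smaller yield of other cells cannot be told apart.

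**Figure D1:**
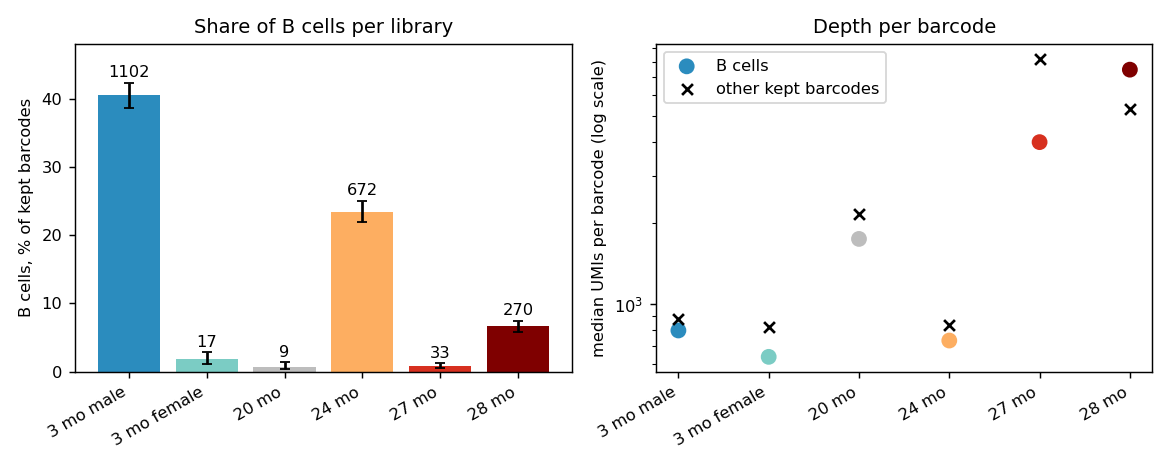
Left, B cells as a percentage of kept barcodes in each library (bars start at 0, error bars are exact 95% binomial intervals, the number of B cells stands above each bar). Right, median UMIs per barcode on a log scale for B cells (circles) and other kept barcodes (crosses). The 3-month male (40.5%) and the 24-month library (23.4%) hold most B cells, and those of the 27-month and 28-month libraries are the deepest.

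Depth differed between libraries as well. The median B cell had 797.5 UMIs in the 3-month male, 636 in the 3-month female, 1749 at 20 months, 731.5 at 24 months, 4012 at 27 months and 7470.5 at 28 months. Summed over B cells, the libraries held 1026382, 11336, 34398, 570311, 146136 and 2198164 UMIs. The 28-month female thus had about 4 times fewer B cells than the 3-month male and more than 2 times their UMIs. Of the B cells at the edge of the rule, with exactly 2 marker UMIs, there were 97, 5, 0, 115, 0 and 4, and barcodes just outside it, with 1 marker UMI and none of the 8 other genes, numbered 74, 5, 4, 109, 0 and 16. The edge therefore touches the shallow libraries most. Kept barcodes were also shared between libraries: 156 by the 3-month libraries, 131 by the 3-month male and the 24-month library, and 215 by the 3-month female and the 24-month library, against at most 4 in any other pair. Only the 3-month libraries shared barcodes that were B cells in both, and those were 3.

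The V genes that B cells transcribed differed between libraries. A light chain V gene was called in a cell when it had at least 2 UMIs and the majority of that cell's Igkv and Iglv UMIs, and a heavy chain V gene when it had at least 1 UMI and the majority of the Ighv UMIs. The heavy chain rule was chosen after the data were seen. Heavy chain calls were made in 87, 76 and 78 B cells of the 3-month male, the 24-month and the 28-month library, and light chain calls in 110, 43 and 64. The 3-month female had 2 and 1 such cells and the 27-month library 4 and 2, so V gene use is described for 3 libraries only and was not tested between ages. Calls covered 7.89%, 11.3% and 28.9% of the B cells of the 3 libraries for heavy and 9.98%, 6.40% and 23.7% for light chains. At 28 months, cells with Ighv12-3 had 36374 CPM of Ighm and those with another heavy chain gene 52842, against 20270 over all B cells. At 24 months cells with Ighv6-3 had 39668 and those with another 20009, against 6323. V gene use there thus describes a minority of cells, rich in Ighm.

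In the 28-month female, 45 of 78 cells with a heavy chain call used Ighv12-3 (57.7%, exact 95% interval 46.0 to 68.8), and 27 of 64 with a light chain call used Igkv4-91 (42.2%, 29.9 to 55.2). In the 3-month male these genes were also the most frequent of their chain, but with 6 of 87 (6.90%, 2.57 to 14.4) and 10 of 110 cells (9.09%, 4.45 to 16.1). At 24 months other genes led, Ighv6-3 with 27 of 76 (35.5%, 24.9 to 47.3) and Igkv6-15 with 17 of 43 (39.5%, 24.98 to 55.6), against 2 of 87 (2.30%, 0.280 to 8.06) and 3 of 110 (2.73%, 0.566 to 7.76) in the 3-month male. These genes are shown because they led in a library, and the intervals are over cells of 1 library, so no difference between ages is read from them. As background, Ighv12-3 joined with Igkv4-91 and Ighv11-2 joined with Igkv14-126 are known receptors for phosphatidylcholine, found often among B-1 cells, a self-renewing population of the body cavities that makes natural IgM.

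**Figure D2:**
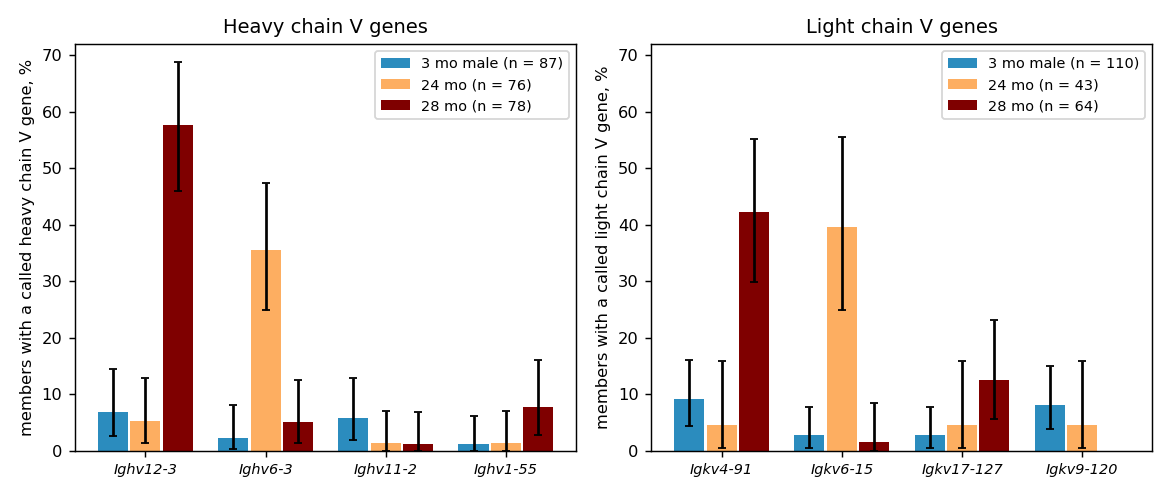
Percentage of B cells with a called heavy chain (left) or light chain (right) V gene that used each of 4 genes, in the 3-month male, the 24-month and the 28-month library (bars start at 0, error bars are exact 95% binomial intervals, n is the number of cells with a call). Ighv12-3 and Igkv4-91 lead at 28 months (57.7% and 42.2%), and Ighv6-3 and Igkv6-15 at 24 months (35.5% and 39.5%).

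The germline genes behind these calls are shown because a cell was assigned by reads that matched them. Each line gives the last 150 bases of the spliced GENCODE M21 transcript (GRCm38), 5′ to 3′ on the coding strand, with the motif TANTNNTGN in capitals. It covers the codon of the conserved cysteine that closes the third framework region, and the bases after it enter the antigen-binding loop. Searched on the coding strand alone, the motif stood in the last 40 bases of 207 of 216 V gene transcripts (95.8%).
Ighv12-3: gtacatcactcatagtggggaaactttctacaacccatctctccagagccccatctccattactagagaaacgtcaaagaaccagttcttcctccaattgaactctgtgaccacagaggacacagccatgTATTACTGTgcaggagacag
Igkv4-91: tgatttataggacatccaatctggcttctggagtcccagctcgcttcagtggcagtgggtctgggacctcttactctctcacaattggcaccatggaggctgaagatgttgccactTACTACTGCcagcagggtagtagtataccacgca
Ighv6-3: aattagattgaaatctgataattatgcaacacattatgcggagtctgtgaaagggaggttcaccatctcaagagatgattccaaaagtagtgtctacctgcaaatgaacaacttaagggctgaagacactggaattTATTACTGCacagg
Igkv6-15: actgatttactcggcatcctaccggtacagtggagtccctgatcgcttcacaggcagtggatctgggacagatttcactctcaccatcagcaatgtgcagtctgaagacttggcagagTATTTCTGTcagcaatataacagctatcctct
The genes lie on the minus strand, at chr12:114366521-114366954 (Ighv12-3), chr6:68768555-68769103 (Igkv4-91), chr12:114391712-114392169 (Ighv6-3) and chr6:70406469-70406992 (Igkv6-15). Over these 150 bases the most alike other V gene matched Ighv12-3 at 61.3% of positions, Igkv4-91 at 89.3%, Ighv6-3 at 90.0% and Igkv6-15 at 94.7%. A V gene with so close a copy can share reads with it, so the 3 latter calls are less certain than that of Ighv12-3. The junctions that would tell 1 clone from several were not read.

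The leading heavy and light genes of a library went together within its cells. Of 50 B cells at 28 months with any Ighv12-3 UMI, 37 also held Igkv4-91 (74.0%, exact 95% interval 59.7 to 85.4), against 3 of 33 cells called for another heavy chain gene (9.09%, 1.92 to 24.3). Of 27 cells at 24 months with Ighv6-3, 15 held Igkv6-15 (55.6%, 35.3 to 74.5), against 0 of 49 (which allows up to 6.12%). In the 3-month male, 3 of 6 cells with Ighv12-3 held Igkv4-91 and 4 of 5 with Ighv11-2 held Igkv14-126. At 24 months 2 of 4 cells with Ighv12-3 held Igkv4-91. Igkv6-15 was held by 0 of 10 cells with Ighv6-3 at 28 months (0 to 30.8%) and 0 of 2 in the 3-month male. Outside the B cells, Ighv12-3 was found in 4 of 3797 kept barcodes of the 28-month library and in none of the T-cell barcodes. At 24 months Ighv6-3 was found in 11 and Igkv6-15 in 12 of 2196 other barcodes, against 27 and 51 B cells, with 13 and 30 UMIs in free RNA.

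The concentration of V gene use is likewise given for 3 libraries, with no test. It covers only the cells with a call, whose share of the B cells differed between the libraries. The probability that 2 cells with a call had the same heavy chain gene was 2.43% in the 3-month male, 12.9% at 24 months and 33.9% at 28 months. For light chains it was 3.84%, 15.8% and 20.3%. The number of genes called was 42, 38 and 21 for heavy chains and 36, 21 and 18 for light chains. Lambda light chains took 3 of 110, 1 of 43 and 8 of 64 light chain calls. The kappa constant gene Igkc was listed at 0 in every barcode of all libraries, so no kappa to lambda ratio of constant regions could be formed.

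At 28 months, cells with Ighv12-3 differed from the 33 cells with another heavy chain gene in several B-cell subset genes. These are sums over cells of 1 library, with no test, and the intervals cover counting error only. Bhlhe41, a factor that B-1 cells need, had 124 CPM against 52.7 (ratio 2.35, 1.31 to 4.50). Il5ra, the receptor of interleukin 5, had 532 against 290 CPM (ratio 1.83, 1.43 to 2.39), and Ighg3 had 185 against 56.5 CPM (ratio 3.27, 1.90 to 6.04). Other genes linked to B-1 cells did not follow: Plscr1 was lower (84.8 against 158 CPM, ratio 0.536, 0.348 to 0.828), and the intervals of Cd9 (ratio 0.900), Cd5 (2.10), Zbtb32 (1.39) and Sspn (1.89) include 1. Ighd, the constant region of IgD, was far lower, with 7 against 80 UMIs (11.9 and 301 CPM, ratio 0.0394, 0.0153 to 0.0849). The complement receptor Cr2 had 1 against 21 UMIs and was lower too. Both sets had high Ighm, 36374 and 52842 CPM.

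At 24 months the 27 cells with Ighv6-3 had 39668 CPM of Ighm against 20009 in 49 cells with another heavy chain gene (ratio 1.98, 1.82 to 2.16). Their Jchain was 12489 against 4993 CPM, in 10 of 27 and 9 of 49 cells. Bhlhe41 had 1 against 7 UMIs and Ighd 2 against 11, counts too low to read a direction.

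Over all genes, expression in the B cells was compared between the 2 young and 3 old libraries with at least 10 of them to ask whether they differ with age. UMIs were summed over the B cells of each library and tested with edgeR's quasi-likelihood test. Both young libraries and the 24-month library share barcodes and are shallow, with medians of 797.5, 636 and 731.5 UMIs per B cell. The 27-month and 28-month libraries share few barcodes with them and had medians of 4012 and 7470.5 UMIs. Age, depth and barcode sharing thus go largely together here and cannot be fully told apart. Of 3762 genes tested, 0 (0%) passed an adjusted p of 0.05, while 110 (2.92%) had an unadjusted p under 0.05 with a higher and 76 (2.02%) with a lower level in old cells. DESeq2 called 1 gene. The median log2 fold change over all genes was 0.12. It was 0.47 without the 3-month male, 0.35 with edgeR's own low-count filter (filterByExpr) and -0.10 without a filter on low counts. Without such a filter 310 genes had an unadjusted p under 0.05 in edgeR with a higher and 1695 with a lower level. In 598 genes (15.9%) all old libraries lay above both young ones in CPM, and in 478 (12.7%) all lay below. The 3-month female, with 17 B cells, resolves little: 1 UMI there equals 88.2 CPM. Without the 24-month library 61 genes were called, 4 higher and 57 lower, and without scaling by the trimmed mean of M-values (TMM) 25 genes, 12 higher and 13 lower. With a term for the libraries that share barcodes, 31 genes had an unadjusted p under 0.05 in edgeR with a higher and 45 with a lower level.

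The gene of smallest p was Jchain, at 167 and 88.2 CPM in the young male and female and at 1163, 1567 and 2548 CPM at 24, 27 and 28 months. All old libraries lay above both young ones, and the log2 fold change was 3.58 ± 0.75 (SE), with an adjusted p of 0.350 in edgeR's test. Over the other settings its adjusted p ran from 2.08e-05 without TMM to 1.00 with the set of libraries that share barcodes in the model, with 0.00357 in DESeq2 and 0.00547 in edgeR without the 24-month library. Spread over cells differed by library. At 24 months all 663 Jchain UMIs came from 25 of 672 cells, and at 27 months all 229 came from 2 cells, 131 of them from 1. At 28 months the 5600 UMIs came from 124 of 270 cells, of which only 35 held at least 10 each. Of these UMIs 3389 were in cells with Ighv12-3 and 1855 in cells with another heavy chain gene, so they lay mostly in few cells there too. With each library left out, the log2 fold change of Jchain lay between 3.74 and 5.06.

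Ighm followed the same order, with 3914 and 2382 CPM in the young and 6323, 11626 and 20270 CPM in the old libraries (log2 fold change 2.09 ± 0.67, edgeR adjusted p = 0.946). With each library left out, that fold change lay between 1.56 and 3.16. At 27 months 1 cell held 928 of the 1699 Ighm UMIs, and without it the level there was 5276 CPM, still above the young libraries. Il5ra had 39.0 and 0 CPM in the young libraries against 139, 732 and 481 CPM (log2 fold change 3.48 ± 0.87, edgeR adjusted p = 0.946). The 0 in the 3-month female allows up to 264.6 CPM, above the 24-month value, so for Il5ra, and for Bcl2, Birc3, Cd83 and Cxcr5 below, the separation rests on the 3-month male. Without that library their fitted log2 fold changes lie between 10.2 and 11.4 against a count of 0 and are not interpretable. Ctla4, an inhibitory receptor best known from T cells and also made by B-1 cells, had 24.4 and 88.2 CPM against 114, 267 and 353 CPM. Of the T-cell receptor genes, Cd3g had 1.95 CPM in the 3-month male, 5.26 at 24 months and 28.2 at 28 months, while Cd3d had 3.90, 3.51 and 4.55 CPM and Trac 4.87, 8.77 and 3.64 CPM. The part of T-cell RNA in the Ctla4 values was not tested. The next genes with higher values were mt-Nd2, with 512 and 794 against 2439, 2279 and 3667 CPM, and mt-Nd4, with 514 and 1059 against 2208, 2614 and 3441 CPM, which both code for subunits of respiratory complex I in the mitochondrial genome. The median mitochondrial share of a B cell was 0.851% in the 3-month male, 1.86% in the 3-month female, and 3.30%, 2.21% and 3.31% at 24, 27 and 28 months. Its part in these values was not tested.

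**Figure D3:**
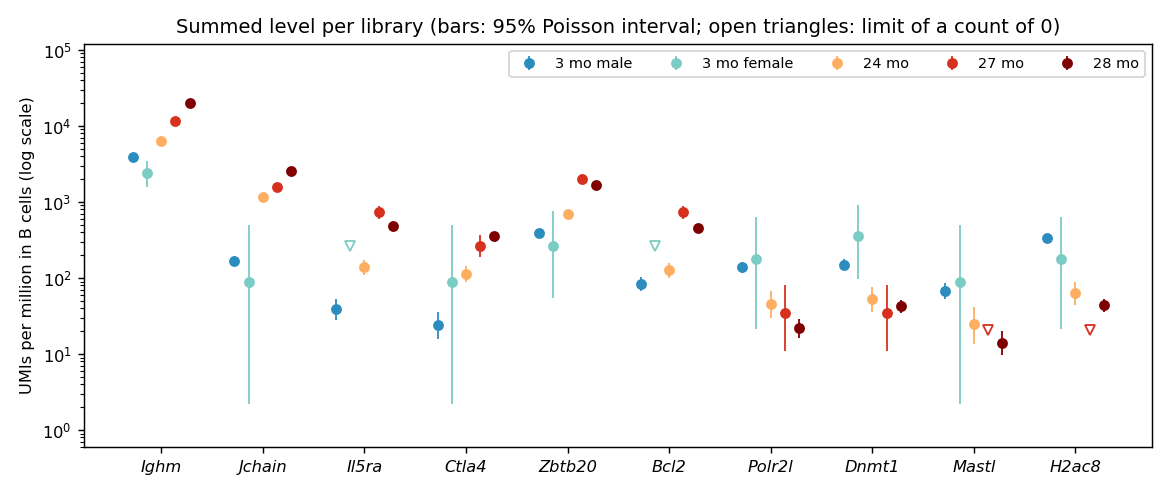
Summed level of 10 genes in the B cells of each library with at least 10 of them, in CPM on a log scale (bars are 95% Poisson intervals, which cover counting error only; an open triangle marks the limit that a count of 0 allows). Ighm, Jchain, Il5ra, Ctla4, Zbtb20 and Bcl2 have all old libraries above the 3-month male, and Polr2l, Dnmt1, Mastl and H2ac8 below it.

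The 5 genes of smallest p with lower values in old cells were Polr2l, Dnmt1, Mastl, H2ac8 and Cks2. Polr2l, a subunit shared by RNA polymerases, had 139 and 176 CPM in the young against 45.6, 34.2 and 21.8 CPM in the old libraries. Dnmt1, which copies DNA methylation after replication, had 150 and 353 against 52.6, 34.2 and 42.3 CPM (log2 fold change -1.99 ± 0.56). The mitotic kinase Mastl had 67.2 and 88.2 against 24.5, 0 and 14.1 CPM, the histone gene H2ac8 340 and 176 against 63.1, 0 and 43.7 CPM, and the cyclin-dependent kinase subunit Cks2 68.2 and 176 against 28.1, 20.5 and 15.9 CPM. All old libraries lay below both young ones in these 5, as in 12.7% of all genes tested, but the genes were picked for their p and the 3-month female held only 1 to 4 UMIs of each. Each had an adjusted p of 0.946.

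No gene of any list passed the test, so lists are given by counts and medians. Of 20 cell cycle genes 7 were tested, 0 had a higher level in old cells and their median log2 fold change was -1.02, beside 57.1% of all genes higher and a median of 0.12. Stmn1, which takes microtubules apart, had 242 and 176 against 85.9, 6.84 and 103 CPM, and Hmgb2, a chromatin protein of dividing cells, 899 and 970 against 396, 41.1 and 369 CPM. Summed over the list the level was 3141 and 2294 CPM in the young and 1352, 520 and 1770 CPM in the old libraries. The 4 germinal centre genes tested, of which Stmn1 and Top2a are also cell cycle genes, were all lower in old cells (median -0.97). Top2a overlapped between the groups, with 204 and 88.2 against 54.4, 6.84 and 120 CPM. The whole germinal centre list summed to 673 and 618 against 300, 281 and 609 CPM, so the 28-month value lay close to the young ones. Its gene Mki67, present in too few cells to be tested, had 41 and 1 UMIs in the young and 17, 0 and 306 in the old libraries. At 28 months it was the most abundant gene of that list (139 CPM). Of the 38 nuclear oxidative phosphorylation genes tested, 7 were higher (median -0.49), with Atp5g2 at 63.3 and 88.2 against 38.6, 6.84 and 15.5 CPM. The whole oxidative phosphorylation list summed to 13928 and 13232 CPM in the young and 9618, 7035 and 10130 CPM in the old libraries. In 17 of its tested genes all old libraries lay below both young ones. Ribosomal protein genes were higher in 19 of 45 (median -0.12). Summed over the list they had 170650 and 158345 against 136380, 102240 and 126723 CPM. All old libraries lay below both young ones in 17 of the 45 and above in 6, beside 12.7% and 15.9% of all genes tested.

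Genes for antibody secretion and survival had higher medians. In the plasma cell list 7 of 8 tested genes were higher in old cells (median 0.67) and of the immunoglobulin constant genes 6 of 6 (median 0.58), both with Jchain. The plasma cell list held Hsp90b1, a chaperone of the endoplasmic reticulum, with 427 and 176 against 530, 794 and 1176 CPM. Of 9 survival genes 7 were higher (median 0.73). Bcl2, which blocks cell death, had 83.8 and 0 CPM in the young against 126, 739 and 451 CPM in the old libraries, and Birc3 had 89.6 and 0 against 158, 547 and 209 CPM. Of 11 tested genes of the B-1 list 6 were higher (median 0.59). Sox5 had 714 and 618 against 882, 2429 and 1501 CPM, whereas Vim, in the same list, overlapped between the groups. Immediate early genes, which respond to handling as well as to signals, were higher in 17 of 19 (median 0.92), with Jun at 39.9 and 88.2 against 135, 137 and 264 CPM. Junb and Jund, the most abundant of these genes, overlapped between the groups. The summed level of the list overlapped too, with 2480 and 3705 against 4485, 5098 and 2989 CPM.

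Genes of B-cell identity come next. Of 22 genes of the receptor complex, which include genes of the rule, 13 were higher (median 0.36), with the adaptor Bank1 at 1018 and 794 against 1476, 3339 and 2062 CPM. Of 21 B-cell transcription factors 15 were higher (median 0.41), with Foxp1 at 1177 and 1147 against 1457, 3565 and 2020 CPM. The 4 genes that selected the cells had log2 fold changes between -0.48 (Cd79b) and 0.53 (Ms4a1), from which nothing is read. Follicular genes, which include Ly6d of the rule among those counted as higher, were higher in 8 of 14 (median 0.05). Cd83 had 89.6 and 0 against 263, 1067 and 118 CPM, and Cxcr5, the receptor that draws B cells into follicles, 62.4 and 0 against 103, 411 and 143 CPM. The p53 and ARF partners were higher in 2 of 7 (median -0.20) and the cell cycle inhibitors in 1 of 2 (median 0.02). Genes of antigen presentation on MHC class II were higher in 7 of 10 (median 0.03), with Cd74 between 5116 and 7109 CPM in all 5 libraries. Interferon response genes were higher in 8 of 13 (median 0.07), MHC class I genes in 7 of 11 (median 0.17), heat shock genes in 7 of 9 (median 0.27) and marginal zone genes in 2 of 5 (median -0.32).

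Of the genes that mark age-associated and memory B cells, 5 of 10 tested were higher (median -0.03). Zbtb20, a factor of memory and antibody-secreting cells, had 388 and 265 against 696, 1998 and 1661 CPM, and Nfatc1 had 125 and 88.2 against 158, 575 and 495 CPM. S100a6, a calcium-binding protein, had 7965 and 5293 against 5169, 1040 and 1451 CPM, with the 3-month female and the 24-month library close to each other (60 and 2948 UMIs). Its log2 fold change of -1.17 became -0.25 without the 3-month male and -2.34 without the 24-month library. Itgax and Tbx21, the defining pair of age-associated B cells, were too low to be tested, with 4, 0, 2, 1 and 6 UMIs of Itgax and 10, 0, 2, 0 and 10 UMIs of Tbx21 in the 3-month male and female and at 24, 27 and 28 months.

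Antibody class was compared by the constant regions transcribed. The Ighd share of Ighm and Ighd UMIs was 5.42% in the 3-month male (230 of 4247), 3.57% in the 3-month female (1 of 28), 4.15% at 24 months, 2.30% at 27 months (40 of 1739) and 0.456% at 28 months (204 of 44761). With the B cell of most Ighm left out in each library, a choice made after its values were seen, the shares were 5.60%, 4.55%, 4.38%, 4.93% and 0.483%, so the low value at 27 months came from 1 cell. With all cells the old libraries lay lower on average (mean 2.30% with SD 1.85 over 3 libraries, against 4.49% with SD 1.30 over 2) and overlapped the young ones (exact permutation p = 0.4, adjusted 0.8 over 3 values, smallest possible p 0.2). Switched constant regions made up 2.37% of heavy chain constant UMIs in the 3-month male, 0 of 28 UMIs in the 3-month female (which allows up to 10.7%), and 0.318%, 0.401% and 0.809% at 24, 27 and 28 months (exact permutation p = 0.8, adjusted 0.8). In the 3-month male 48 of the 103 switched UMIs were Igha from 2 of 1102 cells. Without Igha, left out after its values were seen, the shares were 1.28%, 0, 0.239%, 0.115% and 0.692% in the same order. A design of this size cannot show that the groups are alike.

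Cdkn2a codes for p16Ink4a and p19Arf, of which the first inhibits the kinases that start the cell cycle and the second stabilises p53 by blocking Mdm2. Both are used as marks of senescent cells. It lies at chr4:89274471-89294653 on the minus strand (GRCm38), and reads from the 3′ end do not separate the products. It was found in 1 of 1102 B cells of the 3-month male (0.0907%, exact 95% interval 0.00230 to 0.505), 0 of 17 of the 3-month female, 0 of 9 at 20 months, 2 of 672 at 24 months (0.298%, 0.0361 to 1.07), 0 of 33 at 27 months and 35 of 270 at 28 months (13.0%, 9.20 to 17.6). The counts of 0 allow a share of up to 17.6%, 33.3% and 9.09%. Free RNA held Cdkn2a at 18.7, 5.94, 8.26, 2.75 and 2.64 CPM in the libraries of 3 (male and female), 20, 24 and 27 months, and at 0 of 141728 UMIs at 28 months, which allows up to 21.2 CPM. The summed levels in the B cells of the 3-month male and at 24 months (0.974 and 3.51 CPM) rest on 1 and 2 UMIs, and the first lies below the free RNA of its library and the second has an interval that includes it. All but 3 of the 38 positive B cells thus came from 1 library. Old and young libraries overlapped, and the shares averaged 4.42% (SD 7.40, 3 libraries) and 0.0454% (SD 0.0642, 2 libraries), with an exact permutation p of 0.6, adjusted 0.8.

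A UMI is found more often in a deeper cell, and the B cells of the 28-month library were the deepest. Thinned to 500 UMIs each, 2 of its 270 B cells held Cdkn2a (0.741%, 0.0898 to 2.65), beside 1 of 1102 in the 3-month male and 2 of 672 at 24 months, and these intervals overlap. At 3000 UMIs, a depth chosen after the data were seen, 10 of 239 B cells at 28 months (4.18%, 2.02 to 7.56) and 0 of 27 at 27 months (which allows up to 11.1%) were positive. The summed level of Cdkn2a, which does not rise with depth, was 25.02 CPM at 28 months (55 UMIs, Poisson interval 18.8 to 32.6, which includes the limit for free RNA), 3.51 CPM at 24 months (2 UMIs, 0.425 to 12.7) and 0.974 CPM in the 3-month male (1 UMI, 0.0247 to 5.43). The 28-month interval lies above the other two, while the counts of 0 in the 3-month female and at 27 months allow up to 264.6 and 20.5 CPM.

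Within the 28-month library the B cells had the highest share of 7 classes chosen by like rules, with an interval that overlaps only those of T-cell and airway barcodes. Cdkn2a was found in 2 of 67 T-cell barcodes (2.99%, 0.364 to 10.4), 17 of 684 myeloid (2.49%, 1.45 to 3.95), 4 of 955 fibroblast (0.419%), 1 of 986 smooth muscle (0.101%) and 2 of 712 endothelial barcodes (0.281%), and in 0 of 17 airway barcodes. Their median depths were 4013, 5814.5, 6389, 6680.5 and 3083.5 UMIs against 7470.5 in B cells, from T cells to endothelium. The summed level was 13.1 CPM in myeloid (9.98 to 17.0) and 6.56 CPM in T-cell barcodes (0.795 to 23.7). In the 3-month male and at 24 months myeloid barcodes had the higher share, with 3.68% and 2.27%. The myeloid share was 5.36% in the 3-month female, 6.90% at 20 months and 5.26% at 27 months. These lie within the 17.6%, 33.3% and 9.09% that 0 of 17, 0 of 9 and 0 of 33 B cells allow, so the direction is not resolved there. Over the 4 libraries with at least 10 B cells and 10 T-cell barcodes the B-cell share exceeded the T-cell share by 1.73 percentage points on average and in 3 of 4 libraries (exact permutation test paired by library, p = 0.625, smallest possible p 0.125). In 2 of those 3 libraries the T-cell count was 0 of 27 and 0 of 65, which allows 11.1% and 4.62%, more than the B-cell shares there, so the direction is resolved in neither. Without the 28-month library the difference was -1.02.

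**Figure D4:**
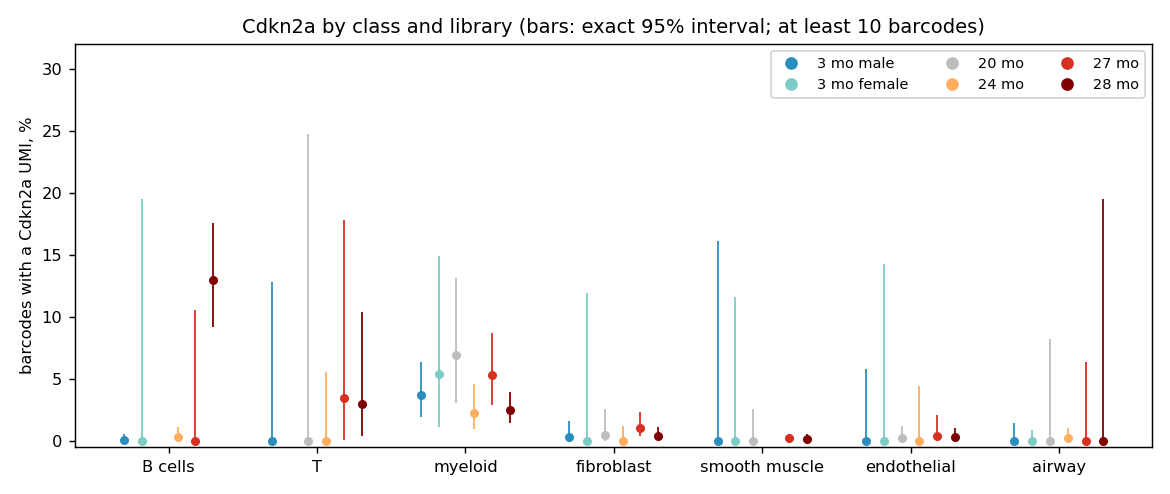
Percentage of barcodes with at least 1 Cdkn2a UMI in B cells and 6 other classes, one point per library with at least 10 barcodes of the class (bars are exact 95% binomial intervals). The 28-month B cells stand at 13.0%, and myeloid barcodes lie between 2.27% and 6.90% in all libraries.

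The Cdkn2a-positive B cells of the 28-month library were compared with the 235 others as sums, with no test, because no other library had 10 of them. They were deeper, with a median of 10711 against 6925 UMIs, and held between 1 and 7 Cdkn2a UMIs each. By construction the others hold none. Of 5297 genes with at least 60 UMIs and present in at least 20% of either set, 2523 (47.6%) had a ratio above 1.

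V genes were set beside Cdkn2a with no test. Cdkn2a was found in 13 of 50 cells with an Ighv12-3 UMI (26.0%, exact 95% interval 14.6 to 40.3) and in 1 of 33 cells called for another heavy chain gene (3.03%, 0.0767 to 15.8), and these intervals overlap. Their median depths were 10437 and 8061 UMIs. The other 21 positive cells were among 192 with no heavy chain call, and the summed level of Ighv12-3 had a ratio of 1.42 (0.949 to 2.09) in positive over other cells. Igkv4-91 was present in 25 of 35 positive and 77 of 235 other cells (71.4% and 32.8%), but presence rises with depth and the positive cells were deeper. Its summed level was 718 against 427 CPM (ratio 1.68, 1.47 to 1.93).

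Genes of cell division were higher in the positive cells. The 20 cell cycle genes summed to 2875 CPM against 1520 (ratio 1.89, 1.76 to 2.03 from counting error only), and 18 of them were higher. Mki67, a marker of cycling cells, was present in 10 of 35 positive and 20 of 235 other cells, with 242 against 116 CPM. Top2a had 244 against 92.0 CPM and Ube2c 131 against 44.6 CPM. Genes of the p53 and ARF pathway were higher in 11 of 15 (ratio of sums 1.26, 1.13 to 1.40). Bbc3, a p53 target that promotes cell death, had 66.6 against 26.2 CPM (ratio 2.54, 1.52 to 4.17), Trp53 itself 151 against 98.2 CPM (ratio 1.53, 1.13 to 2.06), and the inhibitor Cdkn1a 46.9 against 21.2 CPM (ratio 2.21, 1.20 to 3.93). Cdkn1b and Cdkn2c had intervals of the ratio that include 1 (0.633 to 1.32 and 0.301 to 2.16). The 6 inhibitors other than Cdkn2a summed to 192 against 179 CPM (ratio 1.08, 0.828 to 1.38). Cdkn2b, the neighbour of Cdkn2a, had 5 against 7 UMIs (ratio 3.16, 0.791 to 11.6).

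**Figure D5:**
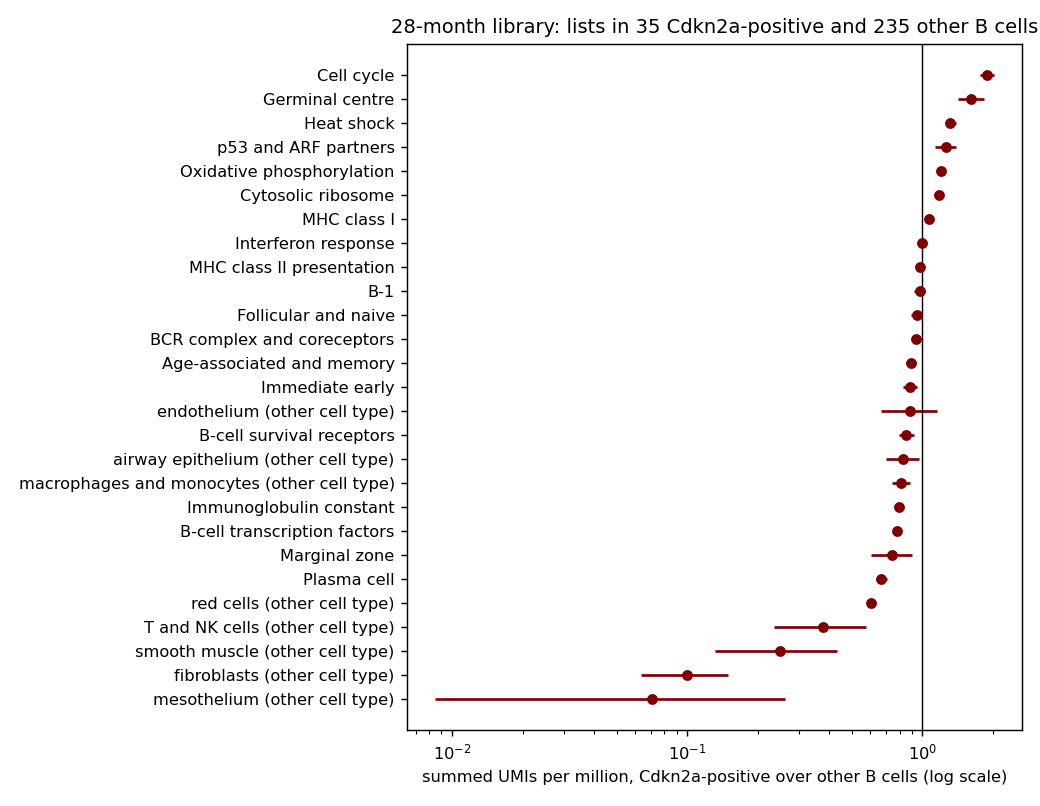
Ratio of summed CPM in 35 Cdkn2a-positive over 235 other B cells of the 28-month library for each gene list with at least 100 UMIs (log scale, bars are 95% intervals from counting error only, the line marks a ratio of 1). The cell cycle inhibitor list is not drawn because it holds Cdkn2a, which defined the sets. The receptor complex and follicular lists hold genes that selected the cells. Cell cycle genes stand at 1.89, plasma cell genes at 0.670 and fibroblast genes at 0.0993.

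Among single genes of at least 60 UMIs, Bcl2l11, which promotes cell death, had the largest ratio, with 373 against 83.1 CPM, but 125 of the 300 UMIs in the library came from 1 cell. Ddt and Gstt1 were also among the 10 largest ratios (3.13, 2.26 to 4.32 and 2.86, 2.17 to 3.76). They lie beside Gstt2 and Mif on chromosome 10, from base 75771230 (Ddt) to 75860240 (Mif), and those neighbours, added after their values were seen, had ratios of 2.13 and 2.21. Ddt was present in 21 of 35 positive and 53 of 235 other cells. The others of the 10 were A430093F15Rik, Pinlyp, Cks1b, Shisa8, Ube2c, Smc2 and Net1.

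The follicular and naive list had a ratio of 0.946 (0.893 to 1.00). In that list Ly6d, a gene of the rule, held 1089 of 1454 UMIs in positive and 4635 of 6803 in other cells. Nothing is therefore read from its ratio. The plasma cell list had a ratio of 0.670 (0.636 to 0.705). Among the single genes of smallest ratio, Ighd had 3 against 201 UMIs, the smallest ratio (0.0660, 0.0135 to 0.196), and the IgM receptor Fcmr 22.2 against 109 CPM (ratio 0.203). B-cell transcription factors summed to a ratio of 0.780 (0.749 to 0.813), with Mef2c at 173 against 437 CPM and Ebf1 at 795 against 1414 CPM. Jchain had 1325 against 2824 CPM (ratio 0.469, 0.429 to 0.513) although it was present in 24 of 35 positive and 100 of 235 other cells, and Ighm 16061 against 21221 CPM. B-1 genes did not separate the sets (ratio 0.975, 0.925 to 1.03). Of the other cell types, fibroblast genes had 59.2 against 596 CPM and red-cell genes 8466 against 14020 CPM. Also lower were mesothelial (ratio 0.0708, 0.00848 to 0.261), smooth muscle (0.249, 0.131 to 0.434) and T and NK genes (0.377, 0.235 to 0.577). Macrophage (0.811, 0.745 to 0.882) and airway genes (0.825, 0.698 to 0.970) were lower by less. The intervals for endothelial (0.882, 0.664 to 1.16), neutrophil (0.577, 0.111 to 1.91), alveolar, cardiomyocyte and thymocyte genes include 1. The part of these other-cell RNAs in the ratios was not tested.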

How the data were processed

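The deposited files hold raw UMI counts per gene and barcode. According to the study's methods the authors trimmed reads with Cutadapt and counted UMIs with STARsolo on GRCm38.p6, release M22; the submitters' processing notes name the same tools without versions. Matrices listed 53647 genes and summed to between 6355125 and 50436562 UMIs per library. Barcodes were filtered and assigned to classes as described above, with no doublet caller. Members and gene lists were chosen with earlier results of these data known. Libraries were the replicates. UMIs summed over B cells were tested with edgeR 4.0.16 (TMM scaling, quasi-likelihood test with robust dispersions, p-values adjusted by Benjamini-Hochberg over all genes with a UMI in over 5% of B cells in at least 3 libraries), with DESeq2 1.42.0 as an alternative. Single values were compared by exact permutation tests. P-values measure the spread between libraries, which may be technical. UMI intervals (95%, exact binomial or Poisson) and limits of a count of 0 (3 counts) cover counting error only.

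Named genes were the markers, cell cycle inhibitors, up to 5 genes of smallest p per direction (no gene passed the threshold), and of each list the 2 most abundant and the 2 of smallest p, with leading V genes, of which the most informative are printed. V gene concentration and the lambda share, planned as tests, are given without one, since too few young libraries had calls and Igkc was listed at 0. In counts simulated from these libraries with 200 changed genes, the test recovered 21.5% of 4-fold and 97.0% of 16-fold changes among 3762 genes. The simulation gave every gene the same dispersion, and apart from the changed genes its libraries differed in summed UMIs only. These rates therefore need not hold for the real counts, whose libraries differ in more than that. Coordinates and sequences come from GENCODE M21, matched by symbol, while the files carry other gene versions.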

Additional observations from a re-analysis of the deposited data

How the results depend on the processing

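Old against young, the count of genes called moved from 0 to 1 with DESeq2, with at least 3 marker UMIs and with B cells thinned to 500 UMIs, to 25 without TMM, to 19 without a filter on low counts and to 24 with edgeR's filterByExpr. It stayed at 0 with at least 1000 UMIs and 500 genes, with no UMI of the 8 excluding genes, without shared barcodes, and with a term for sex or for the barcode-sharing libraries. Leaving out each library in turn gave between 0 and 61 calls. Where a group kept 1 library, that library was assumed to vary like the others. The difference in B-cell share lay between -22.7 and -10.7 percentage points under all settings that kept 6 libraries and between -32.6 and 6.10 with each library left out. Leave-one-out differences ran from 0.103 to 6.58 points for the Cdkn2a share, from -3.12 to -1.27 for the Ighd share, from -1.86 to 0.509 for the switched share and from -1.02 to 3.46 for Cdkn2a in B against T cells.

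Genes with fold changes near 0 changed sign. Ly6d went from 0.01 to -0.18 without TMM, -0.26 with at least 1000 UMIs, -0.17 thinned, -0.018 without shared barcodes and -0.014 with sex as a covariate, and Cdkn1b from 0.09 to -0.065 with sex and -0.093 with the barcode-sharing libraries in the model. With each library left out, the log2 fold changes ran from -0.62 to 0.68 for Cd79a, -0.96 to 0.48 for Cd79b, -0.46 to 0.69 for Ly6d, -0.055 to 1.11 for Cd74 and -0.41 to 0.26 for Cdkn1b. No paired analysis was possible because only the numbers 1 and 2 occur in both groups, they were given in accession order, and the libraries with enough B cells share fewer than 2 of them. The 3-month female limits depth most, with 11336 UMIs in B cells.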
